A study of Mus musculus with 23 samples.

Results

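A set of 9 genes of squamous epithelium was followed across 23 arrays of mouse lung: Krt4, Krt13, Lor, Krtdap, Rptn, Serpinb12, Asprv1, Sbsn and Ada. They were read by the 19 probe sets annotated with 1 of these symbols alone, out of 45037 probe sets and 18193 named genes on the arrays. The genes were picked because earlier work on these same values had found some of them high on a few arrays, so their height on those arrays is a description and supports nothing. The arrays held total RNA of the whole right lung, labelled with biotin, from mice of the inbred strains BALB/c (BALB) and C57BL/6 (B6). CF-/- mice (CF) were set against CF+/+ mice (control) in females and males of both strains, with 2 arrays for the CF males of B6 and 3 for each of the other groups. The labels used here state neither the age of the animals, nor the kind of CF allele, nor whether each array was 1 animal.

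Stratified squamous epithelium lines the mouth, the oesophagus and the skin, and in rodents also the forestomach, whereas the healthy lung is lined by airway and alveolar epithelium. As its cells move to the surface they exchange one set of keratins for another, crosslink small proteins into a cornified envelope under the membrane and finally shed. Krt4 and Krt13 are the keratin pair of the upper layers of moist squamous linings such as the oesophagus. Lor encodes loricrin, the main protein of the cornified envelope of keratinizing epithelia, and Rptn encodes repetin, a calcium-binding envelope precursor of the fused S100 family. Krtdap and Sbsn (suprabasin) encode small secreted proteins of differentiating keratinocytes. Asprv1 encodes a retroviral-like aspartic protease that processes filaggrin in skin, and Serpinb12 belongs to the clade B serine protease inhibitors. Ada encodes adenosine deaminase, an enzyme of purine breakdown that in mice is abundant in the keratinizing epithelium of the tongue, oesophagus and forestomach. Acta1, against which the 9 genes were set, encodes the actin of skeletal muscle.

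The values were log2 signals, in which 1 unit is a doubling. Array medians lay between 4.56 and 4.64, and any pair of arrays correlated at 0.971 to 0.996 across probe sets. Alveolar epithelial genes, the check of the labelled tissue, averaged 10.85 to 11.13 over 14 genes on every array. Cftr, the gene behind cystic fibrosis, had a median of 3.98 (3.49 to 4.42) on the 11 CF arrays and 4.99 (4.04 to 5.85) on the 12 control arrays on 1 probe set, and its other probe set read 2.02 to 2.40 on CF arrays and 2.04 to 2.56 on control arrays. In bulk RNA, fewer cells of a type and less RNA per cell cannot be told apart. Whether arrays of 1 group came from separate animals is not stated, so p-values measure the spread between these arrays.

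By the probe set of widest range, 8 of the 9 genes were above all other arrays on the same 5 arrays, and Sbsn on 4 of them. Of the 19 probe sets, 12 separated all 5 arrays from the rest. These 5 arrays were all 3 CF females of BALB, control female 1 of B6 and control male 3 of B6. They are also the 5 arrays above the widest gap in Acta1, 2.18 log2 units wide. On the other 18 arrays, among them every CF array of B6 and every control array of BALB, each gene stayed within 1.69 log2 units, Sbsn covering the most. Where a gene has several probe sets, the fits below use the one with the highest mean over arrays (the brightest), and the values by array use the one with the widest range. These are the same probe set for 6 genes and differ for Lor, Rptn and Sbsn.

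Krt4 had the widest range of the 9 genes, 8.78 log2 units, and the other keratin of the pair one of 8.03. Krt4 read 9.94, 10.82 and 12.46 in the CF females of BALB, against 4.03, 4.51 and 3.92 in the control females of BALB. In B6 males, Krt4 read 4.17 and 4.03 on the CF arrays, against 4.06, 5.38 and 12.60 on the control arrays. Thus the CF females of BALB did not overlap with their controls, while in B6 males 1 control array stood far above all other arrays of its strain. No fold is given for these heights, since the low level of Krt4 lay below the array medians and signal over background was not analysed here. In B6 females, Krt4 read 4.11, 4.20 and 3.83 with CF and 8.55, 4.29 and 4.06 in controls. In BALB males it read 4.147, 4.138 and 3.997 with CF and 4.01, 4.09 and 4.04 in controls, where the groups overlapped. Krt13 followed the same arrays, at 8.33, 9.25 and 11.02 in CF females of BALB, against 3.47, 3.34 and 3.38 in control females of BALB. Its B6 values were 3.60, 3.50 and 3.44 in CF females, against 7.08, 3.90 and 3.40 in control females. In B6 males Krt13 read 3.46 and 3.47 with CF, against 3.73, 4.46 and 11.35 in controls. Control male 2 of B6 had the highest value of the 18 low arrays for both keratins, 1.27 (Krt4) and 0.96 (Krt13) above its strain's median. Its Acta1 signal of 5.18 was the highest of the 9 low arrays of B6 (4.70 to 5.18), 0.32 above their median. It was inside the range of the 18.

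Loricrin and the small secreted proteins of the upper layers showed the same division. Lor read 8.34, 9.43 and 11.22 in CF females of BALB, against 3.67, 3.72 and 3.25 in control females of BALB. Control female 1 of B6 stood at 6.24 and control male 3 of B6 at 11.07, and the 18 low arrays ranged over 3.17 to 3.94. Another Lor probe set did not separate the arrays at all, with 3.94 to 4.11 on the 5 arrays and 3.61 to 4.29 on the 18. Krtdap read 7.76, 8.75 and 10.75 in CF females of BALB, against 3.34, 3.18 and 3.05 in control females of BALB. On the high control arrays of B6 it read 6.07 in female 1 and 10.41 in male 3, and on the 18 arrays 2.95 to 3.93.

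Sbsn had a level that also varied with strain. It read 6.52, 7.41 and 9.30 in CF females of BALB, against 4.87, 4.70 and 4.90 in control females of BALB. Control male 3 of B6 read 9.04, but control female 1 of B6, at 6.22, lay among the other B6 arrays. The low arrays of BALB covered 4.70 to 5.31 and those of B6 5.76 to 6.39, so that the strains did not overlap.

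Repetin, a gene of the same chromosome 3 cluster as loricrin, gave different readings on its 3 probe sets. On the widest-ranging one Rptn read 5.87, 7.25 and 8.74 in CF females of BALB, against 2.68, 2.69 and 2.65 in control females of BALB. Control female 1 and control male 3 of B6 read 5.11 and 9.12, and the 18 arrays 2.39 to 3.10. The brightest Rptn probe set ran from 4.07 to 4.33 on the 5 arrays and from 3.73 to 4.26 on the 18, and the remaining one from 2.70 to 2.95 and from 2.69 to 3.13. The rule of the brightest probe set therefore enters Rptn with a reading that did not separate the arrays.

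The protease, the inhibitor and the purine enzyme were high on these arrays too. Serpinb12 read 5.50, 6.86 and 9.06 in CF females of BALB, against 2.27, 2.35 and 2.43 in control females of BALB. It read 3.63 in control female 1 and 8.10 in control male 3 of B6, and 2.22 to 2.99 on the 18 arrays. Its second probe set was above all 18 arrays on 1 of the 5 only. Asprv1 read 6.67, 7.57 and 9.37 in CF females of BALB, against 4.32, 4.24 and 4.44 in control females of BALB. It reached 5.48 in control female 1 and 9.08 in control male 3 of B6, and 4.02 to 5.27 on the 18 arrays. Ada read 8.36, 9.34 and 11.11 in CF females of BALB, against 4.92, 4.34 and 4.68 in control females of BALB. In B6 it read 5.77 in control female 1 and 9.54 in control male 3, with 3.94 to 5.28 on the 18 arrays.

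**Figure D1:**
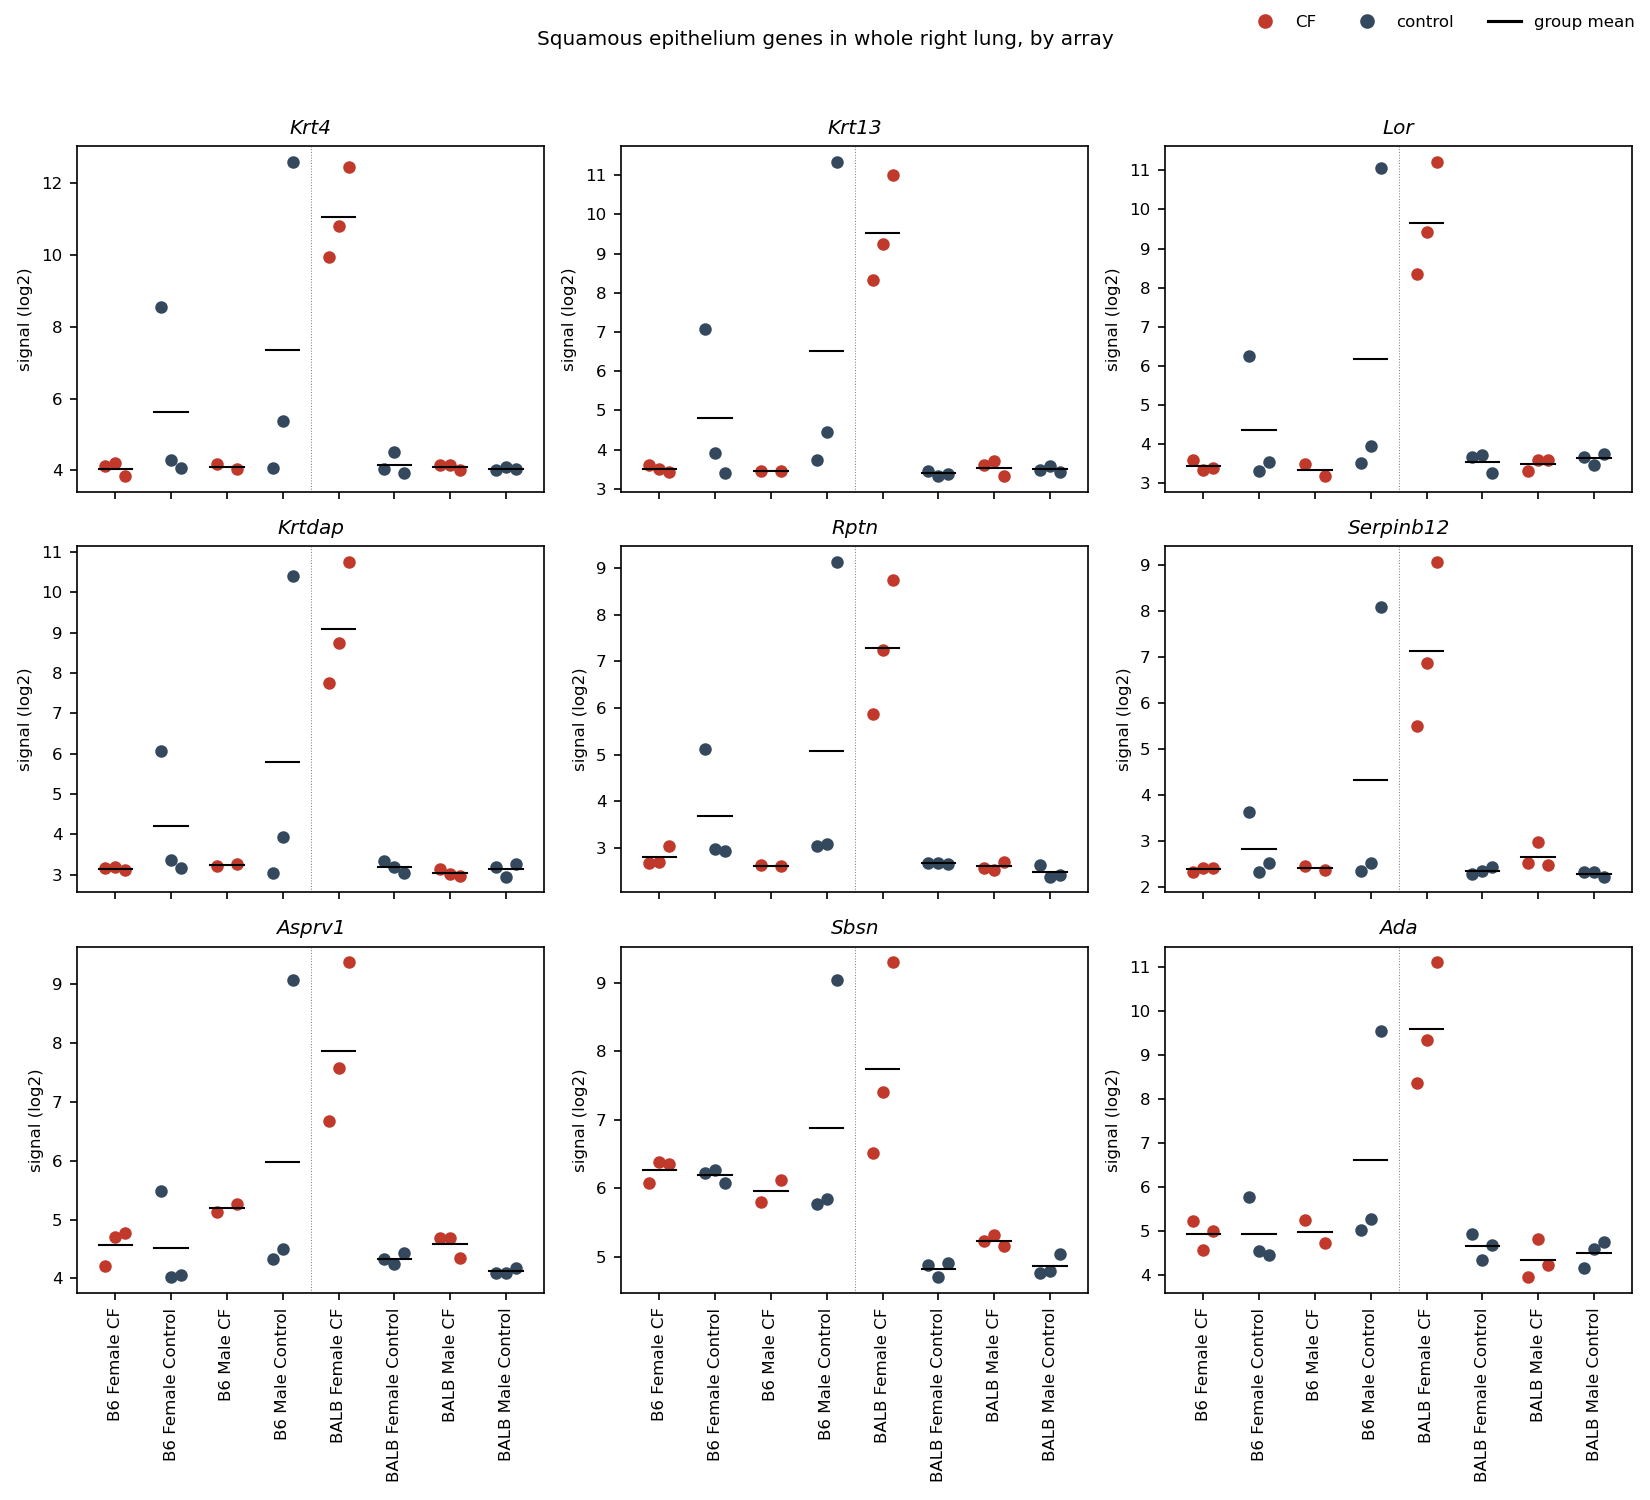
Log2 signal of the 9 genes by group (x axis), with 1 point for each array, CF in red, control in dark blue and a bar at the group mean; each gene is shown by its probe set of widest range. All 3 CF females of BALB and 1 control array in each sex of B6 stand above the rest, except Sbsn in control female 1 of B6.

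The 5 arrays kept nearly the same order from gene to gene. Control female 1 of B6 was the lowest, followed by CF female 1 and CF female 2 of BALB, for all 9 genes and for Acta1. Only the top 2 exchanged places: control male 3 of B6 was the highest for Krt4, Krt13 and Rptn, and CF female 3 of BALB for the other 6 genes and Acta1. The differences between the top 2 were small for the keratins, at 12.60 against 12.46 for Krt4, and have no replicate error of their own.

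The spacing between genes was less constant than their order. On the top 2 arrays Krt4 read 12.46 in CF female 3 of BALB and 12.60 in control male 3 of B6, while Ada read 11.11 in CF female 3 of BALB and 9.54 in control male 3 of B6. Krt13, at 11.02 and 11.35 on the same arrays, lay closer together. These are 1 array each, compared because they were high, and strain, sex and genotype differ between them, so no test was made.

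Promoter sequence was examined because the genes move together on these arrays. RefSeq (GRCm38.p6) gave 10 promoters for 8 of the 9 genes, and Krt4 was not matched. In the 250 bases before the start, 4 motifs were searched on both strands. TGANTCA, with any base at N, is wider than the site of AP-1 factors, which has C or G there. The others were TATAAA (the letters of the TATA box, at any position), CACCC (a core bound by Krüppel-like factors) and AACNNGTT (bound by grainyhead factors). TGANTCA was found in 7 of the 10 promoters, covering 6 of 8 genes, against 6.75% of 32851 mouse promoters. TATAAA was found in 5 of 10 against 12.4%, CACCC in 8 of 10 against 52.0%, and AACNNGTT in 1 of 10 against 3.64%. The TATAAA matches of Lor, Krtdap and Rptn lay close to the start, and those of Serpinb12 far from it. The Acta1 promoter held TATAAA and CACCC and no TGANTCA. The sequences of 5 genes with TGANTCA and that of Asprv1, which lacks it, are shown 5′ to 3′ on the gene's strand. All matches of the 4 motifs on either strand are in capitals (Krt13 at the first of its 2 starts). In the TGANTCA matches shown, Lor and Krtdap have G at N, while Krt13, Rptn and Sbsn have A or T. The second start of Krt13, which is not shown, has 2 matches, both with C at N.
Krt13, chr11:100121567-100121816, minus strand: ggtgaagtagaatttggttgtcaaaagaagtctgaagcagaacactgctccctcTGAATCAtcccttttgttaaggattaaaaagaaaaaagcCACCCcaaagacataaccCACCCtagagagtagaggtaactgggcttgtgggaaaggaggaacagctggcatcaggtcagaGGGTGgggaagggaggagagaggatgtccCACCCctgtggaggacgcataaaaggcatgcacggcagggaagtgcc
Lor, chr3:92083143-92083392, minus strand: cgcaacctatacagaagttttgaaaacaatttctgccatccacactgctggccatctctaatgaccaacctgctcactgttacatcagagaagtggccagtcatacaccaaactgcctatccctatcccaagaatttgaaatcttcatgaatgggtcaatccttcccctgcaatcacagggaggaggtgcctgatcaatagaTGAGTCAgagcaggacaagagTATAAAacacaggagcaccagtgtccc
Krtdap, chr7:30787655-30787904, plus strand: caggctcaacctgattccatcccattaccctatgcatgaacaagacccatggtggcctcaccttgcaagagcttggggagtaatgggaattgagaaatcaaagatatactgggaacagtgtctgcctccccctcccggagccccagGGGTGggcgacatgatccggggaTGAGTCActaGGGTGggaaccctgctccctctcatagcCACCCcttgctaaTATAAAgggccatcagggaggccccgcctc
Rptn, chr3:93393449-93393698, plus strand: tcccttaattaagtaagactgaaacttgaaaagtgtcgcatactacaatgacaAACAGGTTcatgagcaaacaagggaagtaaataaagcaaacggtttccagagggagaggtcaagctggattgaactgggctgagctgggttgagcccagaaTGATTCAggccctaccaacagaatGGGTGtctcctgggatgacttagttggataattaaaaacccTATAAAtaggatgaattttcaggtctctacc
Sbsn, chr7:30751221-30751470, plus strand: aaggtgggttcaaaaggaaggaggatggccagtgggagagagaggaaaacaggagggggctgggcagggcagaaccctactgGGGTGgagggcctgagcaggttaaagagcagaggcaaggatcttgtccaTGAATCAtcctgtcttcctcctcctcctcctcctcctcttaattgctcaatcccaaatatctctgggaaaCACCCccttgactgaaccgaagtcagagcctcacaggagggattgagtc
Asprv1, chr6:86627924-86628173, plus strand: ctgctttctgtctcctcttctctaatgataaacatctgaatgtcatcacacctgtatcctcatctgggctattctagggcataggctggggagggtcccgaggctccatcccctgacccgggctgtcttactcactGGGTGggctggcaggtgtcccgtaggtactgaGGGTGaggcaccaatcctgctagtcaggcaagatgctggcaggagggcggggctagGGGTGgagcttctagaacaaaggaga
A match describes these letters only, and no binding was measured here.

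Co-movement with skeletal muscle actin was tested with the group means removed. The slope of each probe set on Acta1 was fitted with limma across all arrays, with 8 group means in the model and Benjamini-Hochberg adjustment over 45036 probe sets, so that differences between groups could not make the slope. Of the 9 genes, 8 rose with Acta1 by their brightest probe sets (adjusted p under 0.05), where 0.409% of all probe sets rose. As the genes were picked for these arrays, the count describes them and is no independent evidence. Krt4 gained 1.21 ± 0.05 log2 units for each unit of Acta1 (SE, limma adjusted p = 1.16e-12), and Krt13 gained 1.09 ± 0.04 (limma adjusted p = 4.01e-13). Krtdap had a slope of 1.02, Serpinb12 0.81, Lor 0.71, Asprv1 0.69, Ada 0.65 and Sbsn 0.41, the last with a limma adjusted p of 0.000325. Rptn had a slope of 0.03 on its brightest probe set (limma adjusted p = 1) and 0.88 ± 0.05 on the widest-ranging one (limma adjusted p = 9.41e-10).

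The slopes rest on the 5 high arrays. In the same fit over the 18 low arrays, 0 of 9 genes and 0% of probe sets were called, and 0 genes had an unadjusted p under 0.05. Over those 18 arrays the slope of Krt4 was 0.35, that of Ada 0.57 and that of Krtdap -0.10, each with a limma adjusted p of 0.999. With ranks of Acta1 in place of its values 0 genes were called (8 at an unadjusted p under 0.05), and 5 without control male 3 of B6. Because the arrays lie in separate clusters, no correlation over all 23 is given. Of 9 correlations over the 18 low arrays, given with raw p, that of Sbsn was negative (Pearson r = -0.776, Spearman rho = -0.717, two-sided permutation p = 0.00017 and 0.00116; r = -0.779 without the 2 arrays farthest from the median of Acta1). Within strains it did not hold, with r = -0.052 in the 9 low arrays of B6 (exact permutation p = 0.887) and -0.142 in the 9 of BALB (exact permutation p = 0.723). Rptn had r = -0.63 over the 18 arrays (rho = -0.441, two-sided permutation p = 0.00535 and 0.068), and r = -0.417 without the 2 farthest arrays. In the 9 low arrays of B6 it had r = 0.296 (rho = 0.6, exact permutation p = 0.421 and 0.0968). In the 9 low arrays of BALB it had r = -0.813 (rho = -0.6, exact permutation p = 0.00891 and 0.0968), which came down to -0.203 without the 2 farthest arrays and so rests on them. The other 7 genes had r between -0.321 and 0.302 over the 18 arrays, with permutation p from 0.196 upwards.

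**Figure D2:**
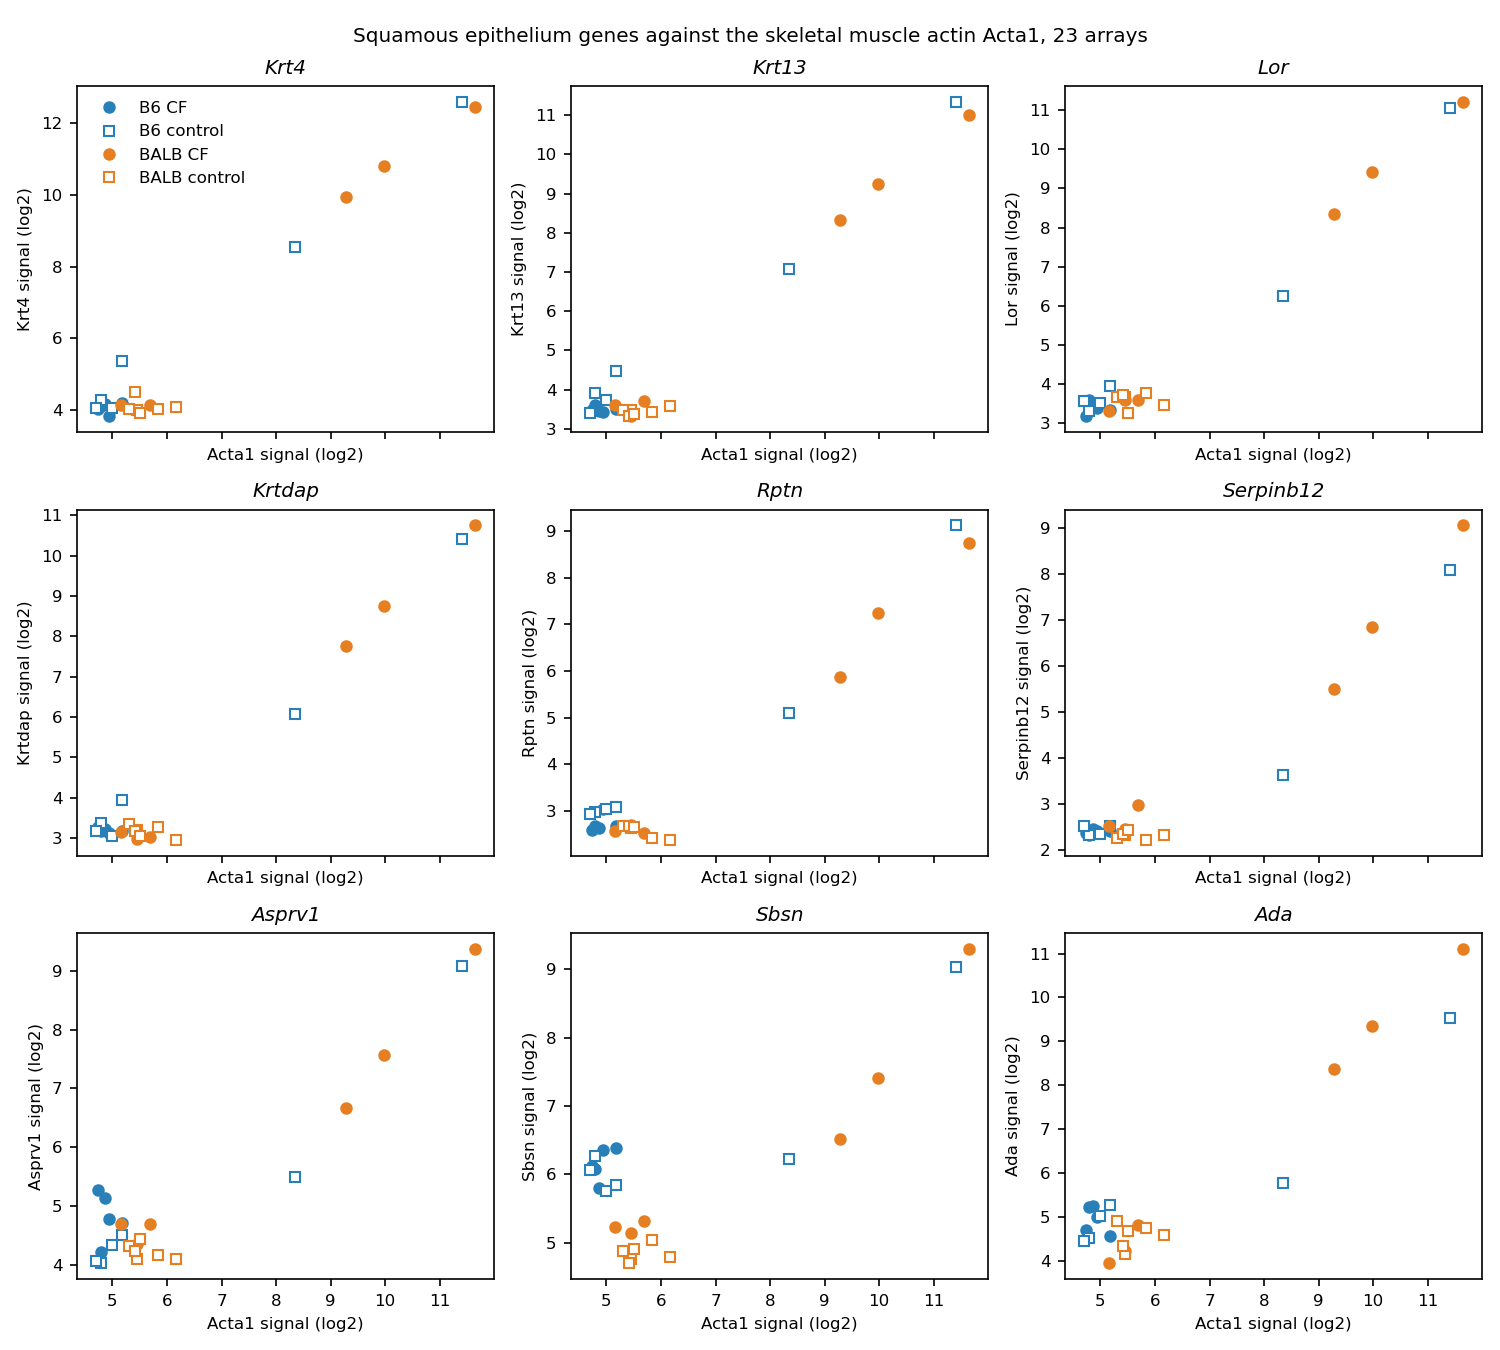
Log2 signal of each of the 9 genes (y axis, probe set of widest range) against that of Acta1 (x axis), 1 point per array, with B6 in blue, BALB in orange, CF filled and control open. The 5 arrays with Acta1 at 8.35 to 11.65 climb together with Acta1, and the 18 arrays at 4.70 to 6.17 form a flat group, in 2 strain levels for Sbsn.

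Other squamous genes moved with Acta1 as well. Of 167 further genes of 7 squamous lists, 62 rose with Acta1 and 0 fell, against 136 rising and 1 falling among 18192 genes by their brightest probe sets, where the median slope was 0.00 (the lists were drawn up with earlier results known). Envelope genes were the most frequent, with 30 of 48 measured genes rising and a median slope of 0.33, Krtdap, Lor and Sbsn among them. Lce3a, a late cornified envelope gene, read 7.05, 8.22 and 10.08 in CF females of BALB, 6.17 and 10.05 in the high controls of B6, and 3.59 to 3.96 on the 18 arrays. Lce3f and Crct1 had slopes of 0.85 and 0.84. Of 30 proteases and inhibitors 13 rose, Serpinb12 and Asprv1 included, and further Serpinb3a (slope 0.52, limma adjusted p = 0.000149) and Serpinb11 (0.40, limma adjusted p = 0.00156), both neighbours of Serpinb12 on chromosome 1. Of 18 desmosome and adhesion genes 9 rose, among them Pkp1, which encodes plakophilin 1 of suprabasal desmosomes (slope 0.33), and Perp (0.26). Barrier lipid genes rose in 5 of 19, with Elovl4, an elongase of very long fatty acids, at a slope of 0.32 and the lipoxygenase Alox12b at 0.27. Of 21 other squamous genes 5 rose, among them Lgals7 (galectin 7, slope 0.41) and Gsdma (0.33).

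Few of the other keratins moved with Acta1. Only 4 of the 18 further squamous keratins rose with Acta1, namely Krt78 (slope 0.32), Krt15 (0.38), Krt14 (0.27) and Krt5 (0.27), of which Krt5, Krt14 and Krt15 are keratins of the basal layer. Krt15 read 5.04, 5.58 and 6.68 in CF females of BALB, 5.14 and 6.81 in the high controls of B6, and 4.16 to 4.76 on the 18 arrays. Krt1 and Krt10, the pair of the upper epidermis, did not pass: Krt1 read 3.65 to 3.84 on the 5 arrays and 3.38 to 3.93 on the 18, and Krt10 5.50 to 6.05 and 5.20 to 5.80. Flg (filaggrin) read 2.71 to 2.98 on the 5 arrays and 2.58 to 2.78 on the 18. These 3 genes, outside the naming rule, were chosen after their values were seen and are given by their brightest probe sets, which for Rptn did not separate the arrays. Of 19 hair follicle genes 0 rose. Of 19 squamous regulators 1 rose, Grhl3 (slope 0.15), while Klf4 and Ehf had slopes of 0.04 each, with limma adjusted p of 1. Of 17 genes of adenosine metabolism Ada alone rose, and Xdh and Ampd3 had slopes of 0.02 each.

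Skeletal muscle genes moved on the same arrays, with 15 of 42 rising on Acta1. Tnnc2, fast troponin C, read 7.07, 8.37 and 9.87 in CF females of BALB, 6.36 and 9.50 in the high controls of B6, and 3.05 to 3.85 on the 18 arrays. The list's mean per array was 4.88 to 6.48 on the 5 arrays and 4.46 to 4.76 on the 18, and that of the 9 squamous genes 5.99 to 9.81 and 4.03 to 4.70. Of the heart list 1 of 16 genes rose (Myl3, which slow skeletal muscle also uses), and of the airway list 1 of 20 (Aldh3a1). None of the genes on the smooth muscle, cartilage, gland, thyroid, thymus, intestine, stomach, adipocyte and alveolar lists was called in that fit. Intestine genes also varied strongly, with a mean of 4.09 to 5.45 on the 5 arrays and 4.10 to 5.92 on the 18, and adipocyte genes with 5.36 to 7.21 and 5.14 to 7.69. The part of any of these cell types in the results was not tested.

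**Figure D3:**
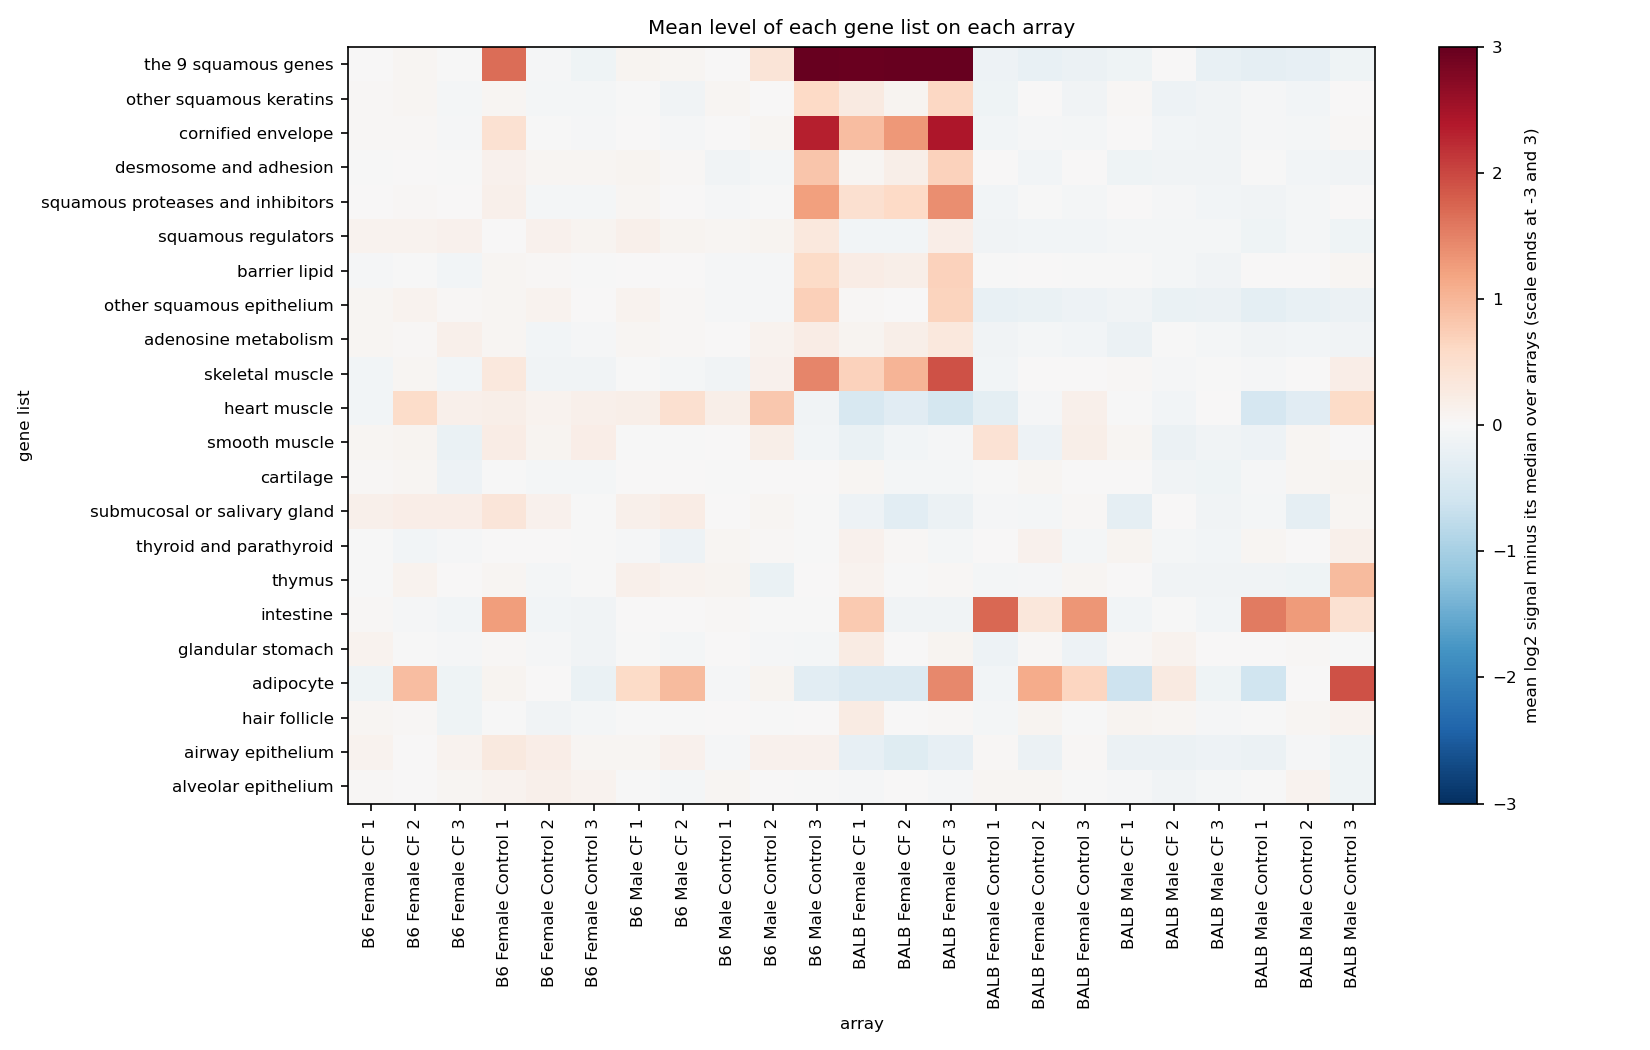
Mean log2 signal of each gene list (rows) on each array (columns), minus its median over arrays, with red above and blue below the median and colours ending at -3 and 3. The 9 genes, the envelope and protease lists (which hold some of the 9) and the skeletal muscle list read higher on each of the 5 arrays than on all 18 others. The keratin and lipid lists do so by a narrow margin (lowest of the 5 at 4.464 and 4.292, highest of the 18 at 4.458 and 4.287). The desmosome, regulator and other squamous lists overlap, and the intestine and adipocyte lists are high on other arrays as well.

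Genes that were on no list but had the most similar pattern were ranked by Pearson r over 23 arrays with the mean of the 9 genes, as a description set by the 5 high arrays. Mt4, a metallothionein of squamous epithelium, had r = 0.995 and read 6.32, 7.34 and 9.18 in CF females of BALB, 5.41 and 9.13 in the high controls of B6, and 3.64 to 4.06 on the 18 arrays. Teddm3 (r = 0.975), Fam25c (0.972), Gm94 (0.972), Wfdc5 (0.954), Psapl1 (0.951), Defb4 (0.951), Lce1h (0.945), Tpm2 (0.944) and 2310011E23Rik (0.940) came next. Among the 100 genes most alike, 55 were on a squamous list, the 9 genes themselves among them, 19 on the skeletal muscle list and 25 on no list, out of 3795 genes whose range reached 1 log2 unit, of which 109 were on a squamous list and 31 on the muscle list.

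Several of the 9 genes lie beside other genes that rose with Acta1. Between Lor (chromosome 3, 92080271 to 92083142 in GRCm38.p6) and Rptn (93393699 to 93399442) the annotation places the epidermal differentiation genes, and 18 of the 33 measured there rose, among them Sprr1b, Sprr3, Kprp, Hrnr and members of the Lce1 and Lce3 families. Some genes within the Lce family, and some within the Sprr family, are alike in sequence, so their probe sets may share targets. Sbsn, Dmkn and Krtdap lie next to each other on chromosome 7, and all 3 rose. Among the 20 nearest measured genes, Krt4 on chromosome 15 had Krt5 and Krt78, Krt13 on chromosome 11 had Krt14, Krt15 and Krt32, and Ada on chromosome 2 had Wfdc5 and Wfdc12. Asprv1 on chromosome 6 had 0 of 20.

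Set by genotype, most of the 9 genes were higher with CF in BALB, and none was called in B6. By brightest probe sets 6 of 9 were higher in CF than in control mice of BALB, taking both sexes together, where 2.6% of all probe sets were higher by the same test. Krt4 averaged 7.59 ± 3.91 on CF arrays and 4.10 ± 0.21 on control arrays of BALB (SD, n = 6 arrays each). The difference was 3.49 ± 0.97 (SE, limma adjusted p = 0.0405). Krt13 differed by 3.09 (limma adjusted p = 0.0427), Krtdap by 2.90 (0.0449), Serpinb12 by 2.58 (0.0319), Ada by 2.40 (0.0139) and Asprv1 by 1.999 (0.0446). Lor (1.98, limma adjusted p = 0.07), Sbsn (1.28, 0.0558) and Rptn (0.10, 0.559) did not pass by these probe sets. On the widest-ranging ones Lor (2.99, limma adjusted p = 0.0471) and Sbsn (1.64, 0.0286) passed, and Rptn (2.37, 0.0602) did not. In B6 0 of 9 were called, with 2 at an unadjusted p under 0.05, where 4.71% of probe sets were called. Krt4 averaged 4.07 ± 0.15 on CF arrays (n = 5) and 6.49 ± 3.45 on control arrays (n = 6) of B6. The difference was -2.42 ± 1.03 (limma adjusted p = 0.215).

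Within BALB each sex was also compared on its own. Of the 9 genes 8 were higher in CF than in control females of BALB, where 0.577% of all probe sets were, with Krt4 at 6.92 ± 1.37, Krt13 at 6.14 ± 1.23 and Ada at 4.96 ± 0.78 (SE, limma adjusted p = 0.022, 0.0221 and 0.00516). In males of BALB 0 of 9 were called and 0 had an unadjusted p under 0.05, where 1.93% of probe sets were called, and Krt4 differed by 0.05 ± 1.37. The difference between the sexes, over both strains, was called for 0 of 9 genes, where 0.304% of probe sets were called, and 8 had an unadjusted p under 0.05. For Krt4 it was 4.27 ± 1.41 (limma adjusted p = 0.2). The strain difference of the CF effect, BALB minus B6, was called for 5 of 9 genes (Krt4 5.90, Krt13 5.26, Krtdap 4.70, Serpinb12 3.75 and Ada 3.21), where 1.34% of all probe sets were called in that direction. On the widest-ranging probe sets Lor (4.88, limma adjusted p = 0.04) and Rptn (4.04, 0.0409) passed too, and Sbsn (2.06, 0.0829) did not. These comparisons share arrays, and every call in them draws on high arrays. As the genes were picked with their height on those arrays known, these counts and p-values are no independent evidence of a CF effect. The same holds for the comparison of CF and control in BALB over both sexes.

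Many single arrays moved these counts. The BALB count of 6 became 1 to 3 without any 1 of 16 arrays, which were all CF arrays of B6 and all BALB arrays but CF female 1. The count in BALB females became 1 without CF female 3, control female 1 or control female 3 of BALB. The strain difference was called for 0 genes (8 at an unadjusted p under 0.05) without either CF male of B6. It was called for 2 or 3 without any CF female of B6, without control female 1 or 2 of B6, or without any BALB array other than CF female 1 and control female 2. With limma's robust variance the counts were 1 in BALB, 1 in BALB females and 0 for the strain difference, the last with 8 at an unadjusted p under 0.05.

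The means of Acta1 differed by genotype in opposite directions in BALB and B6. As the 5 arrays were set apart by Acta1, these means restate which arrays were high. Acta1 averaged 7.865 ± 2.782 (SD) on CF and 5.611 ± 0.326 on control arrays of BALB, against 4.897 ± 0.169 and 6.571 ± 2.740 in B6. On the 4 low control arrays of B6 it averaged 4.920. In males of BALB it averaged 5.429 with CF and 5.815 in controls. Of 43 skeletal muscle genes 12 were higher in CF than in control females of BALB, where 0.577% of all probe sets were. Without the 5 arrays, which leaves only males in the CF group of BALB, 0 of 9 squamous genes were called in BALB (2.31% of probe sets), with 3 at an unadjusted p under 0.05, and Krt4 differed by 0.05 ± 0.22. In B6, 1 of 9 was called by brightest probe sets without the 5 arrays (4.21% of probe sets), and that was Asprv1, in the opposite direction to its value over all arrays. On its widest-ranging probe set Rptn was called too, lower with CF (-0.31 ± 0.08, SE, limma adjusted p = 0.0352). Its readings on the 18 arrays were all 3.10 or lower. Asprv1 averaged 4.82 ± 0.42 (SD) on the 5 CF arrays of B6 (4.21 to 5.27). On the 4 remaining control arrays of B6 it averaged 4.23 ± 0.23 (SD, 4.02 to 4.51). The difference between group means averaged over the sexes was 0.65 ± 0.11 (SE, limma adjusted p = 0.00188). The ranges overlapped through CF female 1 of B6, at 4.21. In males of BALB, Asprv1 read 4.69, 4.69 and 4.35 with CF and 4.10, 4.09 and 4.17 in controls, without overlap, and the difference of 0.46 ± 0.13 did not pass (limma adjusted p = 0.0722). The arrays left out were chosen by Acta1, but those of B6 were all control arrays. Asprv1 read 5.48 and 9.08 on them, above every CF array of B6, so leaving them out raises the B6 difference by itself. The calls of Asprv1 and Rptn without the 5 arrays were also made after the values were seen.

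**Figure D4:**
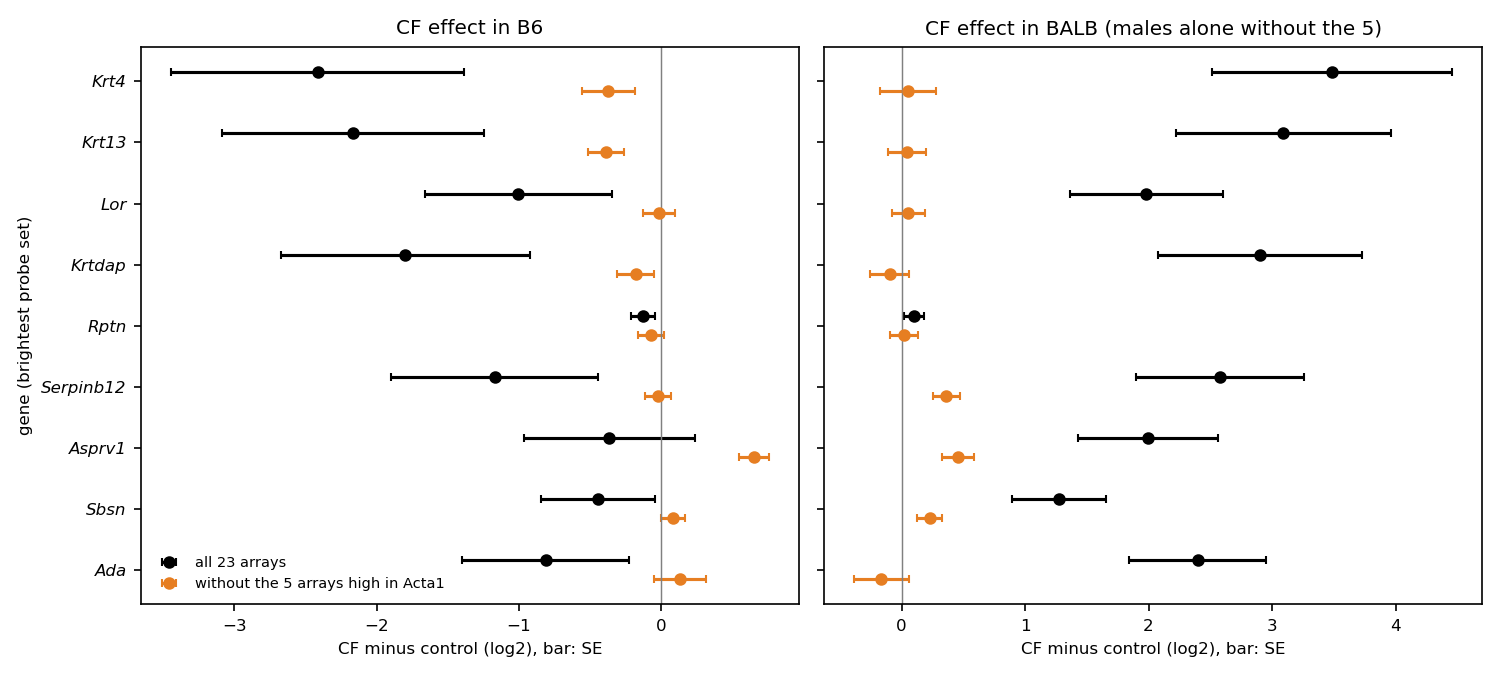
CF minus control (x axis, log2, with SE bars) for the brightest probe set of each of the 9 genes (rows) in B6 and BALB, over all 23 arrays (black) and without the 5 arrays high in Acta1 (orange). Without those arrays every difference lies within 1 log2 unit of 0; that of Asprv1 in B6 is 0.65, against -0.36 over all arrays.

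Between strains, Sbsn was the 1 gene of 9 called in control mice. The comparison was BALB minus B6, where 15.6% of probe sets were called, and Sbsn was lower in BALB. The count became 4 without control male 1 and 2 without control male 2 of B6. By its brightest probe set Sbsn read 5.28, 5.14 and 5.08 in control females and 5.08, 5.25 and 5.44 in control males of BALB, against 6.71, 6.57 and 6.48 in control females and 6.44, 6.30 and 9.35 in control males of B6. The strains did not overlap, and the difference was -1.76 ± 0.38 (SE, limma adjusted p = 0.00201). Without the 5 arrays it was -1.24 ± 0.08 (limma adjusted p = 3.85e-09), where 14.5% of probe sets were called. Krt13 was then called as well, at -0.43 (limma adjusted p = 0.0229), but not once control male 2 of B6 was also left out (-0.25, limma adjusted p = 0.195). Without the 5 arrays, probe sets other than the brightest were also called for Rptn (-0.44, limma adjusted p = 0.000444) and Krt4 (-0.40, 0.0289). A dimmer Krt13 probe set was called in the other direction (0.23, limma adjusted p = 0.0363). The dimmest Sbsn probe set read 3.51 to 3.87 in controls of BALB and 3.72 to 5.77 in controls of B6, and so overlapped. Between control females and control males 0 of 9 genes were called and 0 had an unadjusted p under 0.05, where 2.43% of probe sets were called.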

How the data were processed

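Per the labels, 23 arrays were hybridised with biotin-labelled total RNA of whole right lung. The deposited value table of the authors holds 45101 probe sets, and its values (1.79 to 13.82) were taken as log2 signals from their range. How they were normalized, and with which software, was not given in the sources used here. The 64 control probe sets were left out. Genes were named from GEO's platform annotation, which gave 34945 probe sets 1 symbol, 932 several and 9160 none.

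Groups came from the sample titles. The means of 8 groups were fitted with limma 3.58.1 in R 4.3.3 over all arrays (15 residual degrees of freedom, prior 5.81), with Benjamini-Hochberg adjustment over 45037 probe sets and a threshold of 0.05. The slope on Acta1 was fitted with the group means over 45036 probe sets, and correlations were tested by exact permutation or with 100000 resamples (scipy 1.17.1). In simulated data, over 6 comparisons of groups, 95.5% (strain difference of the CF effect) to 100% of changes of 1 log2 unit were recovered. Of the calls, 2.91% (CF effect in BALB) to 7.51% (sex difference of the CF effect) were false. Of slopes of 0.3 on Acta1 100% were recovered, with 4.76% of calls false. The simulated spread was that of typical probe sets, with no high arrays. Krt4 had an SE of 0.97 in BALB and 1.41 for the strain difference, so recovery in groups does not carry over to such genes.

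The 9 genes and the 22 gene lists were chosen with earlier results of these data known. By rule all 9 were named, with up to 4 genes of widest range from each list and the 10 genes on no list whose pattern was most alike. Same-numbered arrays did not deviate together (77 pairs, r -0.18 to 0.35, median 0.0021), so numbers were not taken to pair arrays. Alternatives were quantile normalization, a filter on dim probe sets, the mean of a gene's probe sets, robust variances, array weights, the replicate number as a block, other covariates and leaving out arrays. Leaving out the 5 arrays high in Acta1, or also control male 2 of B6, and the widest-ranging probe set were added after the data were seen.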

Additional observations from a re-analysis of the deposited data

Results flagged for a closer look

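In control mice of B6, male 3 stood far from the other 5 arrays of its strain and genotype for Lor (10.89, brightest probe set), Serpinb12 (8.10), Asprv1 (9.08), Sbsn (9.35, brightest probe set) and Ada (9.54). In control mice of BALB, Krt4 in female 2 read 4.51, apart from the other 5 arrays at 3.92 to 4.09. Apart means that the gap to the nearest array, as a share of the group's range, exceeded Dixon's critical value. Chance does that for about 1 in 20 independent groups, and 36 combinations of gene and group of 5 or 6 arrays were checked. These checks are not independent, since the genes move together. Control male 3 of B6 is 1 of the 5 high arrays, and the genes were picked with such heights known, so its flags are a description. The CF effect differed between the strains, BALB minus B6, for Krt4 (5.90), Krt13 (5.26), Krtdap (4.70), Serpinb12 (3.75) and Ada (3.21), each by limma's interaction term on the log2 scale. These differences draw on the high arrays for which the genes were picked and are a description.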

How the results depend on the processing

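Quantile normalization moved no count of called genes. Averaging all probe sets of a gene gave 3 called genes for the CF effect in BALB and 1 for the strain difference, robust variances 1, 0 and, in BALB females, 1, and the filter on dim probe sets, which kept 6 of the 9 genes, 3 for the strain difference. Array weights gave 1 for the sex difference of the CF effect. With the replicate number as a block 8 genes passed in BALB, 0 in B6, 5 for the strain difference, 1 between strains, 0 for both sex comparisons, 8 in BALB females, 0 in BALB males and 8 for the slope on Acta1. Leaving out 1 array at a time gave 1 to 8 called genes in BALB, 1 to 8 in BALB females, 0 to 6 for the strain difference, 1 to 4 between strains, 0 to 1 for the sex difference of the CF effect, 5 to 8 for the slope, and 0 in B6, in BALB males and between the sexes of control mice. The slope was called for 5 genes without the 2 arrays farthest from the median of Acta1 (control male 3 of B6 and CF female 3 of BALB), for 0 with ranks, and for 8 with Ckm in place of Acta1, without group means, and in each strain or genotype alone. Rptn, not called in the slope fit, had slopes of -0.037 in BALB arrays alone and -0.041 in CF arrays alone.

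Without the 5 arrays high in Acta1, and by brightest probe sets, B6 had 1 called gene and BALB 0. The strain difference had 0, the comparison of the strains 2 and the slope 0. With control male 2 of B6 also left out, these counts were 1, 0, 0, 1 and 0, in that order. Signs turned without the 5 arrays for the CF effect in B6 of Asprv1 (0.65), Sbsn (0.081) and Ada (0.13), in BALB of Krtdap (-0.10) and Ada (-0.16), for the strain difference of Asprv1 (-0.20) and Ada (-0.30) and for the slope of Krtdap (-0.10). With control male 2 of B6 also left out, they turned in B6 for Krtdap (0.042), Serpinb12 (0.022), Asprv1 (0.70), Sbsn (0.046) and Ada (0.20), in BALB for Krtdap (-0.10) and Ada (-0.16), for the strain difference of Krtdap (-0.14), Asprv1 (-0.24) and Ada (-0.36) and for the slope of Krtdap (-0.27). Without control male 3 of B6 alone, Asprv1 (0.41) and Sbsn (0.050) turned in B6; over the 23 omissions these ran from -0.77 to 0.41 and from -0.71 to 0.050. Of these, Asprv1 in B6 without the 5 arrays passed the threshold, also with control male 2 left out; the others did not. Beyond the arrays left out, the cause was not tested. Signal over background was not analysed here, and the number of arrays limits the precision.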
